A study of Mus musculus with 2 samples.

Results

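The genes described here carry cell-to-cell adhesion in epithelium: the classical cadherins Cdh1, Cdh2, Cdh3 and Cdh11, the adhesion molecule Epcam, and the catenins Ctnna1, Ctnnb1, Ctnnd1 and Jup. They are 9 of the 33696 features of the count matrix and were chosen by name, as the proteins of the cadherin complex with Epcam beside them. In the matrix their identifiers were ENSMUSG00000000303 (Cdh1), ENSMUSG00000024304 (Cdh2), ENSMUSG00000061048 (Cdh3), ENSMUSG00000031673 (Cdh11), ENSMUSG00000045394 (Epcam), ENSMUSG00000037815 (Ctnna1), ENSMUSG00000006932 (Ctnnb1), ENSMUSG00000034101 (Ctnnd1) and ENSMUSG00000001552 (Jup). Their levels were read in the cell classes that the library holds, and so was the rate at which they were found together in single cells.

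The library was made from KPCY 6419c5, an established mouse pancreatic ductal adenocarcinoma line. Cells of the line carried a lineage-tracing system named BASELINE, in which an adenine base editor on Cas12a writes marks into the genome. Clones 76 and 84, each grown out of 1 cell, were mixed in equal numbers after 19 days of editing and loaded as 1 library with a droplet chemistry that counts the 3′ ends of transcripts. Both cell classes therefore share the line, the editor and the editing time, and neither is an unedited control.

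The labels do not give each cell's clone, so cells were classed by expression. An A cell had at least 2 unique molecular identifiers (UMIs, which count captured RNA molecules) over the 5 genes Pde10a, Plcb1, Galnt18, Arhgap15 and Ceacam1, and at least 3 times as many of these as of the B genes. A B cell met the same rule with the 6 genes S100a7a, Rgs20, Hs6st2, Ccbe1, Ctse and Mal. None of the adhesion genes is among them. Of 22178 barcodes, 21361 passed the cell filter, and these held 7816 A cells, 8936 B cells and 4609 cells in neither class. Median depth was 4699.5 UMIs in A cells and 5440.5 in B cells, and median mitochondrial shares were 3.19% and 1.89%. The classes are expression classes and are not called clones here.

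Classical cadherins are single-pass membrane proteins that bind the same cadherin on the neighbouring cell. Inside the cell, beta-catenin (Ctnnb1) or plakoglobin (Jup) binds the cadherin tail and links it through alpha-catenin (Ctnna1) to actin, while p120 catenin (Ctnnd1) holds the cadherin at the membrane. Cdh1 is the cadherin of epithelium and Cdh2 that of neural and mesenchymal cells, and a move from Cdh1 to Cdh2 is widely used as a mark of epithelial-mesenchymal transition in pancreatic cancer. Epcam is an epithelial membrane protein unrelated to the cadherins, known to loosen cadherin adhesion and to associate with claudins.

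B cells carried more cadherin RNA than A cells, and most of the excess was Cdh2. In CPM, the UMIs of a gene per 1000000 UMIs of its class, Cdh2 stood at 27.2 in A cells and 199 in B cells, a log2 ratio of B over A of 2.87. Cdh1 was higher in B cells as well, at 31.5 CPM in A and 116 CPM in B cells. Epcam was 10.1-fold higher in A cells, at 31.8 CPM against 3.16 CPM. The 4 catenins summed to nearly equal levels, 632 CPM in A cells and 633 CPM in B cells, but in different proportions. With 1 library there are no replicates, so no test between classes was possible: the intervals given are exact Poisson or binomial intervals at 95% and cover counting error only. They do not cover the spread between cultures or libraries.

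**Figure D1:**
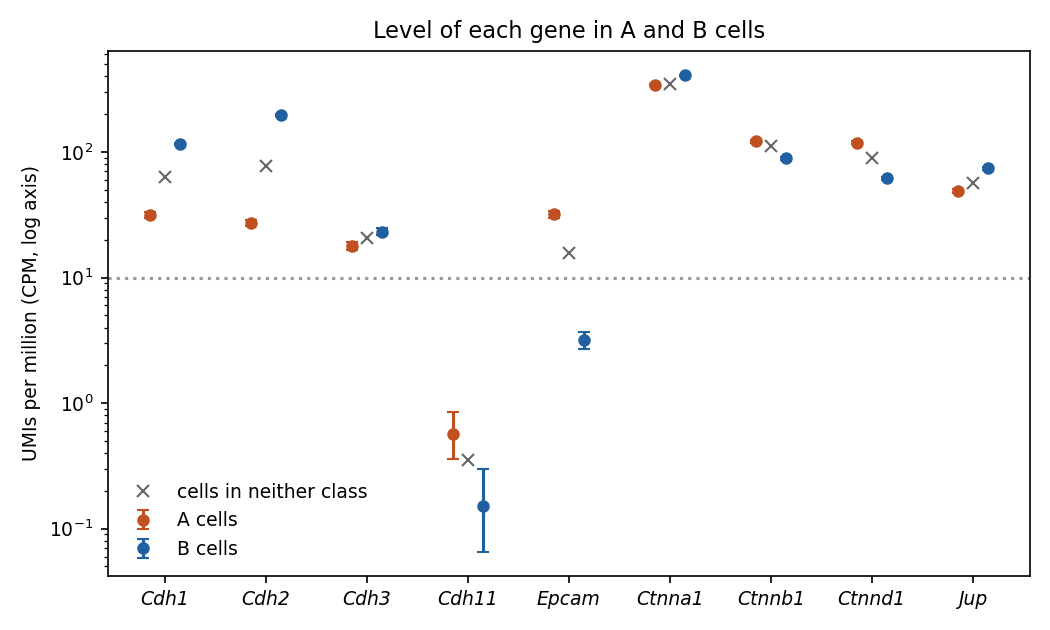
Level of each gene in CPM (log axis) in A cells, B cells and cells in neither class. Points are class sums, bars are exact Poisson 95% intervals and the dotted line marks 10 CPM. Cdh1 and Cdh2 lie higher in B cells, Epcam higher in A cells, and Cdh11 lies under 1 CPM in both.

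Of the 9 genes, 8 reached 10 CPM in A or B cells and were compared, and 3 of them were at least 2-fold apart: Epcam higher in A cells, Cdh1 and Cdh2 higher in B cells. That is 37.5% of those compared. Over all 8800 genes that reached 10 CPM in either class, 17.6% were at least 2-fold apart, 10.3% higher in A and 7.26% higher in B cells. The share higher in A among these genes was 58.7%, and it was 46.5% once log2 ratios were centred on the median gene, since that median was -0.17. All values here are uncentred unless stated, and centring, which raises every log2 ratio by that shift, gave a count of 3 as well and changed no direction among the 9. The median log2 ratio of the 8 genes was 0.31 and their median size 0.77, beside a median size of 0.41 over all genes. Cdh2 stood at percentile 98.0 of the log2 ratios of all genes compared, Cdh1 at 96.4, Ctnnd1 at 11.5 and Epcam at 1.44. These percentiles place the genes among all others and are not a test.

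Cdh2, or N-cadherin, was the cadherin with most RNA in B cells. It was counted 1094 times in A cells, or 27.2 CPM (25.6 to 28.8), and 10482 times in B cells, or 199 CPM (195 to 202). The ratio was 7.31-fold, log2 2.87 (2.78 to 2.96). Cdh1, or E-cadherin, was counted 1269 times in A cells, or 31.5 CPM (29.8 to 33.3), and 6109 times in B cells, or 116 CPM (113 to 119). Its ratio was 3.67-fold, log2 1.88 (1.79 to 1.97), so the epithelial and the mesenchymal cadherin were both higher in the same class. Cells in neither class lay between, at 77.2 CPM for Cdh2 and 63.7 CPM for Cdh1.

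Cdh3, or P-cadherin, a cadherin of placenta and basal epithelium, differed little. It had 18.0 CPM (16.7 to 19.3) in A cells and 23.3 CPM (22.0 to 24.6) in B cells, 1.30-fold higher in B, log2 0.37 (0.24 to 0.51). Cdh11, a cadherin of osteoblasts and fibroblasts, was close to absent from the counts, with 23 UMIs in A cells (0.571 CPM, 0.362 to 0.857) and 8 in B cells (0.152 CPM, 0.0654 to 0.299). It stayed under 10 CPM in both classes and was not compared further.

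The makeup of the cadherin RNA differed with its amount. Counted as 3′ UMIs, which give 1 count per molecule whatever the transcript's length, the 4 cadherins summed to 77.2 CPM (74.5 to 80.0) in A cells and 338 CPM (333 to 343) in B cells. In A cells Cdh1 made up 40.8% of these UMIs, Cdh2 35.2%, Cdh3 23.3% and Cdh11 0.740%. In B cells Cdh2 made up 58.8%, Cdh1 34.3%, Cdh3 6.89% and Cdh11 0.0449%. The number of Cdh1 UMIs per Cdh2 UMI was 1.16 (1.07 to 1.26) in A cells and 0.583 (0.565 to 0.602) in B cells.

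**Figure D2:**
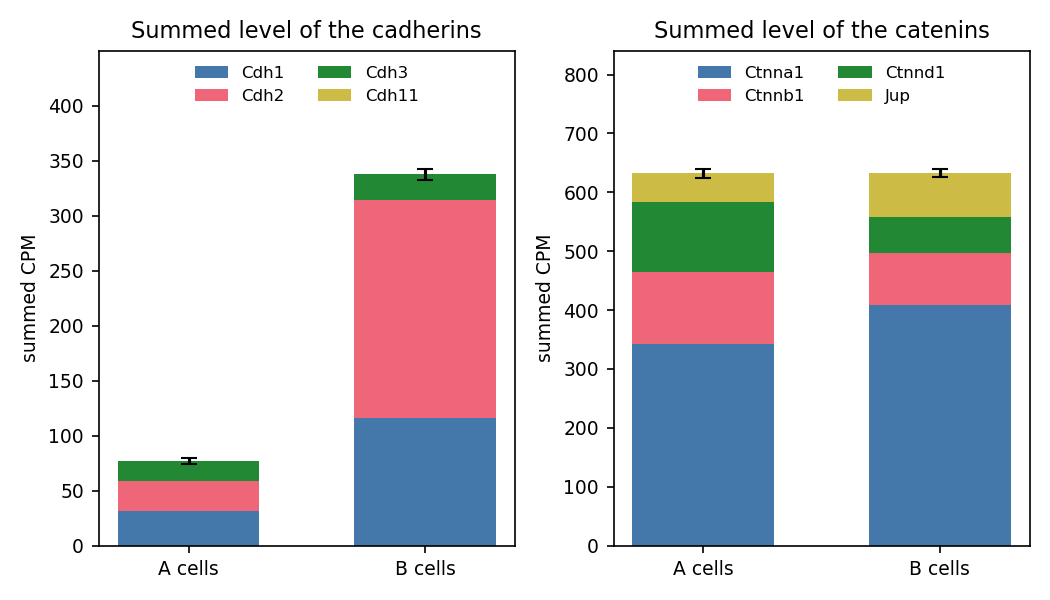
Summed CPM of the 4 cadherins (left) and the 4 catenins (right) in A and B cells, stacked by gene from 0, with exact Poisson 95% intervals of the sums. The cadherin sum is 77.2 CPM in A and 338 CPM in B cells, while the catenin sums are 632 and 633 CPM.

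Single cells showed the same order. To compare cells of different depth, each was thinned at random to 3000 UMIs, which left 7406 A cells (410 shallower cells left out) and 8827 B cells (109 left out). At that depth 8.66% of A cells and 28.7% of B cells had a Cdh1 UMI, against 13.8% and 45.9% before thinning. For Cdh2 the shares were 7.95% and 41.5%, against 12.1% and 60.6% before thinning. For Cdh3 they were 5.06% and 6.57%, and for Cdh11 0.203% and 0.0340%, the latter from 15 and 3 cells. A UMI of any of the 4 cadherins was found in 20.2% of A cells and 60.4% of B cells.

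Cdh1 and Cdh2 were not split between separate B cells. Both were found in 1086 thinned B cells, or 12.3%, while 16.4% had Cdh1 without Cdh2, 29.2% had Cdh2 without Cdh1 and 42.2% had neither. The number of B cells with both was 1.03 times the product of the separate shares, which is what unrelated presence would give. In A cells 54 cells, or 0.729%, had both, 7.93% had Cdh1 alone, 7.22% had Cdh2 alone and 84.1% had neither, and the ratio was 1.06. At 3000 UMIs a cell with no UMI of a gene can still hold its RNA, and a cell with 1 can have it from free RNA, so these are shares of cells with a UMI and not of cells that express the gene.

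Some of the RNA counted in a droplet can be free RNA from other cells, so the low sides were set beside genes marking the opposite class that no rule used. For Cdh2, the A-cell level was 13.7% of the B-cell level, and for Cdh1 it was 27.2%. Among 6 genes of B cells the same figure was 2.64% for Krt14, 3.61% for Cftr, 3.93% for Krt7, 11.0% for Cdkn1a, 12.2% for Areg and 14.0% for Sprr1a. Cdh1 in A cells thus exceeded all 6, while Cdh2 exceeded 5 and lay just under Sprr1a. Free RNA keeps the ratio of its genes, and the 6 genes differed in this. Per UMI of the reference gene, the Cdh2 UMIs in A and B cells were 14.8 and 2.85 for Krt14, 17.1 and 4.51 for Cftr, and 0.509 and 0.146 for Krt7. They lay closer for Cdkn1a, at 10.1 and 8.16, for Areg, at 0.523 and 0.469, and for Sprr1a, at 1.59 and 1.62. In A cells the level of Krt7, a keratin of duct epithelium, was 80.9 CPM in cells with a Cdh2 UMI and 42.8 CPM in those without. The part of free RNA and of mixed droplets in the A-cell level of Cdh2 was not tested. With every cell holding a UMI of the opposite class's rule genes left out, which does not remove free RNA of other genes, the log2 ratio of Cdh2 was 2.99 and that of Cdh1 1.93.

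Epcam ran the opposite way to both cadherins. It was counted 1281 times in A cells, or 31.8 CPM (30.1 to 33.6), and 167 times in B cells, or 3.16 CPM (2.70 to 3.68), log2 -3.33 (-3.57 to -3.10). In A cells there were 1.01 Epcam UMIs per Cdh1 UMI, and in B cells 0.0273. Epcam was found in 7.64% of thinned A cells and in 0.929% of thinned B cells, the latter 82 cells. The B-cell level was 9.95% of the A-cell level. Among 6 genes of A cells the figure was 2.90% for Tm4sf20, 3.18% for Twist1, 3.96% for S100g, 4.10% for Acta2, 4.13% for Ptchd4 and 14.0% for H2ac8. Epcam thus exceeded all of them but H2ac8. Per UMI of the reference gene, the Epcam UMIs in A and B cells were 1.06 and 3.63 for Tm4sf20, 1.19 and 3.71 for Twist1, and 0.174 and 0.437 for S100g. They were 0.221 and 0.537 for Acta2 and 0.189 and 0.455 for Ptchd4, but 0.611 and 0.435 for H2ac8. The part of free RNA in the B-cell level of Epcam was not tested.

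The size of the Epcam difference moved with cell quality and with the class rule. A cells with over 3% mitochondrial UMIs had 40.6 CPM of Epcam and the other A cells 17.6 CPM. In B cells the levels were 14.2 CPM (7.96 to 23.5; 15 UMIs in 199 cells) and 2.94 CPM, so A and B cells lay closer together on either side of that limit than the pooled 10.1-fold. Among cells with at most 3% the log2 ratio was -2.58, and with at least 5000 UMIs and 2000 genes and at most 10% mitochondrial UMIs it was -2.91. Under a class rule asking for 5 UMIs and a 10-fold excess it was -3.98. The share of mitochondrial UMIs also separated the classes as a whole, and its part in the Epcam level was not tested. Depth moved with Epcam too, which had 48.2 CPM in the shallowest of 3 equal depth bins of A cells, 29.3 CPM in the middle and 25.5 CPM in the deepest. In the depth bins of B cells it had 2.27, 3.38 and 3.48 CPM, so the classes were farthest apart in the shallowest bins and closest in the deepest. In the bins of A cells, from shallowest to deepest, Cdh1 had 38.4, 26.1 and 31.7 CPM.

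The sequence before the Epcam start is shown because Epcam was the adhesion gene farthest apart between the classes in the main setting. Among cells with at most 3% mitochondrial UMIs that gene was Cdh2, at a log2 ratio of 2.75 against -2.58 for Epcam. Genes of repressors that bind the E-box CAGGTG differed between the classes as well. Those named below, Zeb2 and Snai2, were higher in A cells, as Epcam was, and their part in its level was not tested. Jup is shown beside Epcam, as the gene found with Epcam most often in thinned A cells relative to the separate shares (without thinning and under the looser cell filter it was Cdh1). Both are the 250 bases before the start of transcription, 5′ to 3′ on the gene's strand, from RefSeq on build GRCm38.p6, which is older than the GRCm39 build named for the counts. The Epcam stretch lies at chr17:87635729-87635978 on the plus strand and the Jup stretch at chr11:100397791-100398040 on the minus strand. Capitals mark the E-box, CAGGTG or its complement CACCTG, and the GC box, GGGCGG or its complement CCGCCC, a motif of Sp-family factors.
Epcam: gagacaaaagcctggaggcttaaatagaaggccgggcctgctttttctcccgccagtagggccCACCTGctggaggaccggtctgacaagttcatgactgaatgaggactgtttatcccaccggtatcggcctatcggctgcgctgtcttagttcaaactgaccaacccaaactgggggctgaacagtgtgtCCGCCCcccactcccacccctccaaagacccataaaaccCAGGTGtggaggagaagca
Jup: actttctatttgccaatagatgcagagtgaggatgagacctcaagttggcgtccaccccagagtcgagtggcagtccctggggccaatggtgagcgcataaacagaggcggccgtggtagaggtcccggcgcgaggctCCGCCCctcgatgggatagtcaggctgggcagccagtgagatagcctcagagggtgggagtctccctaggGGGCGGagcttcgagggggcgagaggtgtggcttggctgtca
The Epcam stretch held 2 E-boxes, beginning 187 and 19 bases before the start, and 1 GC box at 58 bases. The Jup stretch held 2 GC boxes, at 112 and 42 bases, and no CAGGTG on either strand. Over 32544 promoter windows of 300 bases (250 before and 50 after the start), 20.3% held CAGGTG and 35.9% held GGGCGG on either strand. A match describes the letters only. RefSeq windows were found for 4 of the 9 genes, Epcam, Jup, Ctnnb1 and Ctnnd1, and not for Cdh1, Cdh2, Cdh3, Cdh11 and Ctnna1. None of the windows of Ctnnb1 or Ctnnd1 held CAGGTG.

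Among the catenins 2 were higher in A cells and 2 in B cells, none of them by 2-fold. Ctnna1, the alpha-catenin that links the complex to actin, had the highest level of all 9 genes in both classes, at 343 CPM (337 to 349) in A and 408 CPM (403 to 414) in B cells, log2 0.25 (0.22 to 0.28). Ctnnb1, the beta-catenin that also carries Wnt signals to the nucleus, was 1.38-fold higher in A cells, at 122 CPM (119 to 126) against 88.9 CPM (86.4 to 91.5), log2 -0.46 (-0.52 to -0.40). Ctnnd1, p120 catenin, was 1.92-fold higher in A cells, at 118 CPM (115 to 122) against 61.6 CPM (59.5 to 63.8), log2 -0.94. Jup, which takes the place of beta-catenin in desmosomes, was 1.52-fold higher in B cells, at 48.9 CPM (46.8 to 51.1) in A and 74.2 CPM (71.9 to 76.5) in B cells, log2 0.60 (0.52 to 0.68). Ctnnd1 reached log2 -1.08 under the stricter class rule.

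The proportions among the catenins differed more than their sum. Ctnna1 made up 54.3% of the catenin UMIs in A cells and 64.5% in B cells, Ctnnb1 19.3% and 14.0%, Ctnnd1 18.7% and 9.74%, and Jup 7.73% and 11.7%. There were 2.50 Ctnnb1 UMIs per Jup UMI in A cells and 1.20 in B cells. There were 2.90 Ctnna1 UMIs per Ctnnd1 UMI in A cells and 6.62 in B cells. A UMI of any catenin was found in 84.0% of thinned A cells and 83.7% of thinned B cells, so presence of the group as a whole did not separate the classes. For single catenins the shares in A and B cells were 62.8% and 69.4% for Ctnna1, 31.2% and 23.2% for Ctnnb1, 29.2% and 16.6% for Ctnnd1, and 13.6% and 19.7% for Jup.

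The order of levels differed between the classes. From high to low in A cells it was Ctnna1, Ctnnb1, Ctnnd1, Jup, Epcam, Cdh1, Cdh2, Cdh3 and Cdh11, where the intervals of Ctnnb1 and Ctnnd1 overlapped, as did those of Epcam and Cdh1. In B cells it was Ctnna1, Cdh2, Cdh1, Ctnnb1, Jup, Ctnnd1, Cdh3, Epcam and Cdh11, with no overlap between neighbours. Both Cdh2 and Cdh1 thus stood above every catenin but Ctnna1 in B cells, and below every catenin in A cells.

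Gene position moved with some of these differences. Over the compared genes of chromosome 18, which carries Cdh2 and Ctnna1, the median log2 ratio was 0.45 (238 genes). It was -0.38 on chromosome 8 with Cdh1, Cdh3 and Cdh11 (509 genes), -0.43 on chromosome 17 with Epcam (467 genes) and -0.57 on chromosome 2 with Ctnnd1 (677 genes). On chromosome 9 with Ctnnb1 it was -0.11 (468 genes) and on chromosome 11 with Jup -0.07 (709 genes). Ctnna1 at 0.25 lay below the median of its own chromosome, while Cdh2, Cdh1 and Epcam lay far outside theirs. The part of copy number in these levels was not tested.

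Within a class, most pairs of the 9 genes were found together about as often as their separate shares gave. Of 36 pairs, 28 in A cells and 27 in B cells had at least 10 cells expected to hold both. In thinned A cells the ratio of cells with both to the product of shares ranged from 0.511 to 1.37 with a median of 1.04, and no pair passed 1.5. In B cells it ranged from 0.866 to 1.24 with a median of 1.03, and again no pair passed 1.5. Pearson correlations of log(1 + UMIs) over 7406 A cells lay between -0.042 and 0.049, and over 8827 B cells between -0.017 and 0.063. All cells of a class share the library and the thinned depth, and correlations this weak in sparse counts are no finding.

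Cdh2 and Epcam were the pair found together least in A cells in the main setting, whereas under the looser cell filter it was Cdh3 and Epcam (0.604) and under the stricter one Cdh2 and Cdh3 (0.694). They shared 23 thinned A cells where the product of shares gave 45.0, a ratio of 0.511, and Epcam was found in 3.90% of A cells with Cdh2 and 7.97% of those without. The ratio was 0.654 in unthinned A cells and 0.696 at 6000 UMIs, and it ranged from 0.511 to 0.724 over 7 settings, below 1 in each. Cdh3 and Epcam shared 18 cells against 28.7, a ratio of 0.628, but it ranged up to 0.979. At the high end, Epcam and Jup shared 106 A cells against 77.1, a ratio of 1.37 with a range of 1.26 to 1.58. Cdh1 and Epcam had ratios from 1.29 to 1.54 in A cells. Epcam was found in 9.83% of A cells with Cdh1 and in 7.44% of those without.

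**Figure D3:**
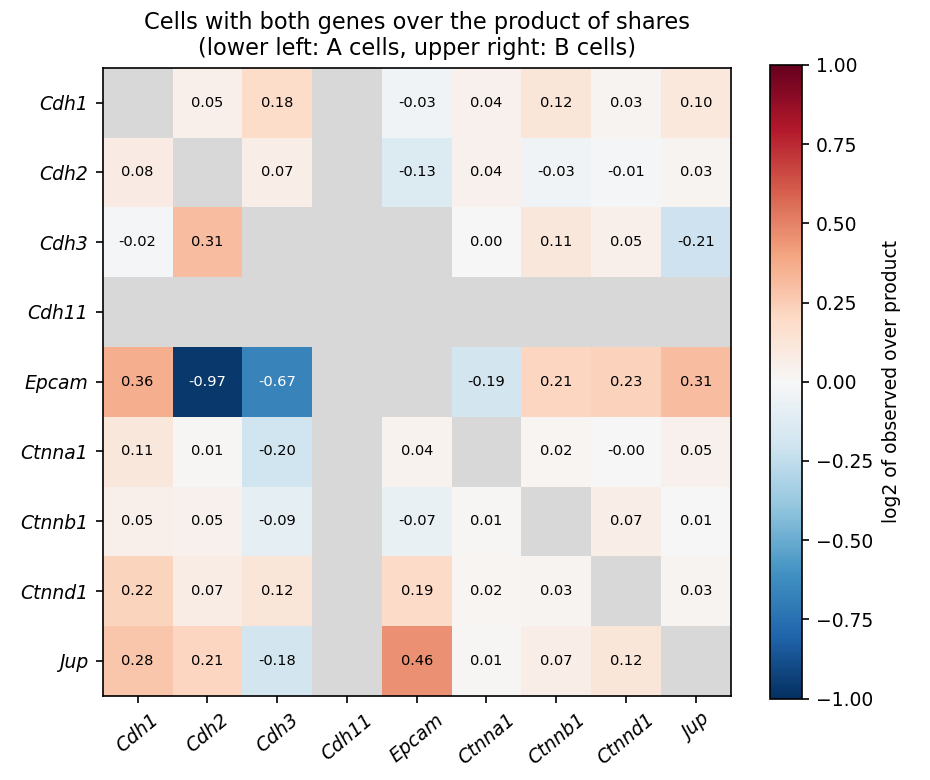
Each cell of the grid shows, for 1 pair of genes, the log2 of the number of cells with both over the product of the separate shares, at 3000 UMIs, for A cells (lower left) and B cells (upper right). Grey marks pairs with fewer than 10 expected cells. Cdh2 with Epcam in A cells is the lowest, at a ratio of 0.511, and most pairs lie near 0.

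Catenin counts were slightly higher in cells where Cdh1 or Cdh2 was found. In B cells the 4 catenins summed to 2.09 UMIs per thinned cell where Cdh1 and Cdh2 were both found, 1.95 with Cdh1 alone, 1.93 with Cdh2 alone and 1.81 with neither. In A cells the values were 2.22, 2.19, 1.99 and 1.89. In B cells the intervals were 2.00 to 2.17 with both and 1.76 to 1.85 with neither. In A cells they were 2.07 to 2.32 with Cdh1 alone and 1.86 to 1.92 with neither. The A cells with both were few, and their interval of 1.84 to 2.66 overlapped that of cells with neither.

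Epcam counts varied more between A cells than a Poisson count would. Of 566 thinned A cells with Epcam, 456 held 1 UMI and 86 held 2. Its variance over thinned A cells was 1.45 times its mean, and 24 cells held 3 or more Epcam UMIs with a highest count of 6. For Cdh2 in B cells the figure was 1.25, with 334 cells at 3 or more and a highest count of 8. For all other genes and classes it lay between 1.00 and 1.11. A Poisson count would give a ratio of 1.

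The genes most like Epcam over A cells, by Pearson correlation of log(1 + UMIs) over 7406 cells, were S100g (0.29), a calcium-binding protein of absorptive epithelium, Lgals4 (0.27), a galectin of intestinal epithelium, Tm4sf20 (0.24), Serpinb1a (0.20), a protease inhibitor, and Gsta4 (0.20), a glutathione transferase. S100g was at 706 CPM in A cells with an Epcam UMI and 152 CPM in those without. Lgals4 was at 1319 and 452 CPM, and Tm4sf20 at 130 and 23.0 CPM. In B cells Krt19, a keratin of duct epithelium, reached 0.11 with Cdh1, at 1775 CPM in cells with Cdh1 and 1519 CPM in those without, and Crip1 reached 0.10. Epcam in B cells and Cdh11 in either class were not correlated, and the other genes and classes had no gene at a positive correlation of 0.1 or more. The 3 most negative with each gene were read as well and are named after their values were seen. With Epcam in A cells they were Npm1 (-0.23), Ncl (-0.22) and Ptma (-0.19), and the same 3 genes reached -0.11 to -0.10 with Ctnnd1. Jup had Hmgb2 at -0.10 in A cells. In B cells Cdh1 had the ribosomal protein genes Rpl6 (-0.12), Rpl21 (-0.12) and Rplp0 (-0.11), Ctnna1 had Rplp0 (-0.11) and Rpl6 (-0.10), and Cdh2 had Lgals2 (-0.12) and Ly6a (-0.11). These are descriptions over cells of 1 library.

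States of the cells were then read from other genes, with at least 2 UMIs and a 3-fold excess asked of the thinned cell. In A cells a state marked by S100g and Tm4sf20 held 703 cells (9.49%, median 4436 UMIs and 3.60% mitochondrial UMIs before thinning). A state marked by Tnc, a matrix gene, Acta2, a contractile gene, and Ptchd4 held 1634 cells (22.1%, 4904 UMIs, 3.10%). The S100g state was drawn from earlier work on these data in which Epcam itself was among the leading genes, so its Epcam level is a description. Epcam was at 136 CPM in the S100g state, 24.3 CPM in A cells of neither state and 11.2 CPM in the Tnc state, and 27.9%, 6.27% and 3.18% of the cells had a UMI. The S100g cells held 40.2% of the Epcam UMIs of thinned A cells.

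Smaller differences between these states were seen in 4 of the other adhesion genes, and A cells of neither state did not always lie between. Jup was at 79.7 CPM in the S100g state, 47.4 CPM in neither state and 43.7 CPM in the Tnc state, log2 0.87 (0.57 to 1.17). Cdh1 was at 48.4, 29.6 and 30.0 CPM in the same order, log2 0.69 (0.31 to 1.06) of S100g over Tnc. Ctnnd1 was at 163, 112 and 124 CPM, log2 0.40 (0.20 to 0.59), lowest in cells of neither state. Cdh2 ran the opposite way, at 16.6, 29.1 and 31.6 CPM, log2 -0.93 (-1.50 to -0.39). Intervals of Cdh3, Ctnna1 and Ctnnb1 included 0. Of 8 genes compared between these states, 1 was at least 2-fold apart, Epcam, beside 6.36% of all genes compared. Since Epcam was among the leading genes of the earlier work behind the S100g state, this count is a description only. Epcam, Jup and Cdh1 were thus higher, and Cdh2 lower, in the S100g state than in the Tnc state.

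In B cells a state marked by Krt14 and Sprr1a, genes of stratified epithelium, held 432 cells (4.89%), and a state marked by Areg, Btc and Cftr, which encode 2 growth factors and a chloride channel of duct cells, held 3150 cells (35.7%). Jup was at 117 CPM in the Krt14 state and 68.1 CPM in the Areg state, log2 0.77 (0.51 to 1.03). Cdh1 was at 160 and 112 CPM, log2 0.51 (0.29 to 0.73), and Cdh2 at 242 and 171 CPM, log2 0.50 (0.32 to 0.68). Here both cadherins were higher in the same state. Ctnna1 was at 469 and 405 CPM, log2 0.21 (0.09 to 0.34), and the intervals of Cdh3, Ctnnb1 and Ctnnd1 included 0. Of 7 genes compared, 0 were 2-fold apart, beside 3.75% of all genes.

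**Figure D4:**
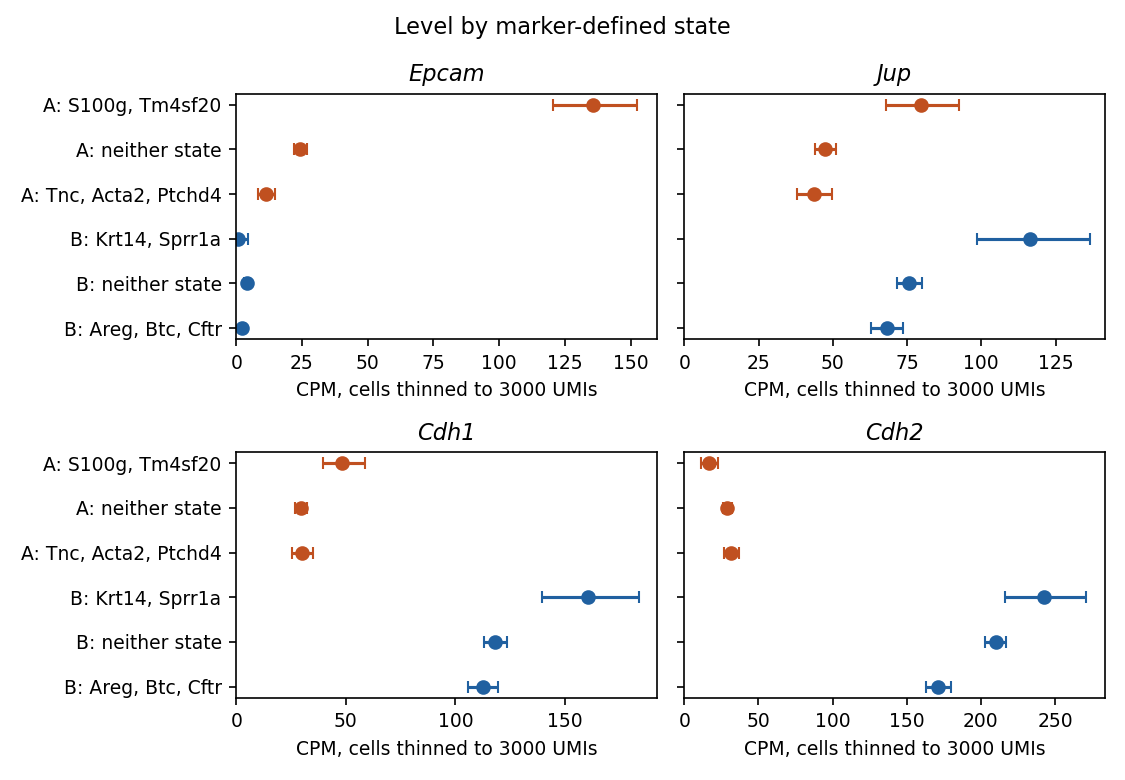
Level in CPM of Epcam, Jup, Cdh1 and Cdh2 in cells thinned to 3000 UMIs, in 3 groups of A cells and 3 groups of B cells defined by marker genes, with exact Poisson 95% intervals. Epcam reaches 136 CPM in A cells of the S100g state and lies at or under 24.3 CPM in the other groups.

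Cell-cycle genes divided the adhesion genes as well. A cells were ranked by the sum of 10 genes of late mitosis, such as Ccnb1 and Cdc20, and the 740 highest and the 740 lowest cells were compared. Cdh1 was at 19.4 CPM in the highest cells and 59.5 CPM in the lowest, log2 -1.62 (-2.15 to -1.11). Epcam was at 23.9 and 91.9 CPM, log2 -1.94 (-2.41 to -1.50), and Jup at 35.6 and 88.3 CPM, log2 -1.31. Cdh2 was at 22.5 and 20.3 CPM. Of 8 genes compared, 3 were at least 2-fold apart, beside 7.9% of all genes. The highest cells had a median of 5373.5 UMIs before thinning and the lowest 3946, and the part of depth was not tested.

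By 14 genes of DNA replication, Epcam was at 23.4 CPM in the 740 highest A cells and 91.9 CPM in the lowest, log2 -1.97. Cdh1 was at 26.1 and 44.1 CPM and Jup at 51.4 and 78.8 CPM, while Cdh2 was higher in the highest cells, at 36.0 against 20.7 CPM, log2 0.80. Of 8 genes compared, 1 was 2-fold apart, beside 6.92% of all genes. In B cells (882 cells at each end) the same ends were compared. By late mitosis Cdh1 was at 101 and 150 CPM, log2 -0.58, Jup at 58.2 and 86.5 CPM, log2 -0.57, and Cdh2 at 186 and 217 CPM, log2 -0.22 (-0.40 to -0.05), with 0 of 7 genes 2-fold apart beside 5.06% of all. By replication Cdh1 was at 106 and 145 CPM, log2 -0.45 (-0.68 to -0.23). Cdh2 ran the opposite way, at 217 and 186 CPM, log2 0.22 (0.04 to 0.40). Intervals of the other genes included 0, and 0 of 7 were 2-fold apart beside 3.33% of all. Cdh1 and Jup were lower in the highest cells by late mitosis in both classes.

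Other genes of the cadherin family were read from a list of 19, of which 4 reached 10 CPM and 2 were 2-fold apart, beside 17.6% of all genes. Cdh13, a cadherin with no cytoplasmic tail, was at 201 CPM in A and 63.4 CPM in B cells, log2 -1.67. Cdh10, a cadherin of brain, was at 6.60 and 27.7 CPM, log2 2.07. Cdh6, a cadherin of kidney and of developing epithelium, was at 33.2 and 61.8 CPM, log2 0.90. The fourth, Cdh17 of intestinal epithelium, named after its values were seen, was at 121 and 151 CPM, so that in A cells both Cdh13 and Cdh17 exceeded each of the 4 classical cadherins. Of 7 further catenins and relatives 3 were compared and 0 were 2-fold apart, beside 17.6% of all genes, with a median log2 of -0.36. The farthest were Ctnnbip1, an inhibitor of beta-catenin in the nucleus, at -0.64, Ctnnal1 at -0.36 and Pkp4 at -0.19.

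Of 15 compared genes for proteins that anchor junctions to actin, 1 was higher in A and 2 were higher in B cells by 2-fold, a share close to the 17.6% of all genes, with a median log2 of 0.04. The nectins, adhesion molecules that work beside cadherins, split: Nectin2 was at 11.6 and 4.98 CPM in A and B cells, log2 -1.22, and Nectin3 at 22.6 and 50.2 CPM, log2 1.15. Ajuba, a LIM protein of junctions, was at 12.3 and 26.7 CPM, log2 1.12. Of 13 genes for the cleavage, uptake and phosphorylation of cadherin complexes 0 were 2-fold apart, beside 17.6% of all genes, and the median log2 was -0.14. Adam10, the sheddase of E- and N-cadherin, was at 81.2 and 50.9 CPM, log2 -0.67, Pip5k1c at -0.55 and Ptpn1 at -0.47.

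Partners and proteases of Epcam were mixed, with 7 compared and 2 of them 2-fold apart, beside 17.6% of all genes. Adam17, which cleaves Epcam, was at 24.4 CPM in A and 9.85 CPM in B cells, log2 -1.31, and Fhl2, which binds the released Epcam tail, at 37.7 and 106 CPM, log2 1.49. Tspan8, a tetraspanin, was at 391 and 565 CPM, log2 0.53. Cldn7, the claudin that binds Epcam, had 44 UMIs in A cells (1.09 CPM) and 0 in B cells (an upper bound of 0.0699 CPM), so it did not reach 10 CPM in either class and was not compared.

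Genes that set the fate of beta-catenin fell on either side of the median of all genes. In the destruction complex 0 of 7 were 2-fold apart, beside 17.6% of all genes, and the median log2 was -0.02, above the -0.17 of all genes, with Gsk3b, its kinase, at 230 and 135 CPM, log2 -0.76, Axin1, its scaffold, at -0.72 and Gsk3a at -0.64. Among 5 nuclear partners of beta-catenin the median was -0.64, below that of all genes, with Bcl9l at 14.8 and 7.39 CPM and Bcl9 at 37.9 and 21.3 CPM, log2 -0.83. Bcl9l was the one gene of the 5 at 2-fold, beside 17.6% of all genes. Its ratio lies at the threshold.

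Among the lists of adhesion genes, partners and regulators, the desmosome genes, whose proteins bind Jup, had the median farthest from that of all genes. Of 7 compared, 5 were at least 2-fold higher in B cells and 0 in A cells, beside 7.26% and 10.3% of all genes, with a median log2 of 3.08. Dsp, the desmoplakin that ties desmosomes to keratin, was at 4.57 CPM in A and 136 CPM in B cells, log2 4.89. Dsg2, the desmosomal cadherin of simple epithelium, was at 1.69 and 30.5 CPM, log2 4.17. Dsg3, that of stratified epithelium, was at 0.174 and 10.2 CPM, log2 5.87. Dsp, Dsg2 and Dsg3 reached 10 CPM in B cells only, the class where they were high, so the count and the median are descriptions. The other genes past 2-fold were Pkp1 (log2 3.08) and Perp (log2 2.17), named after their values were seen. Jup itself, at 1.52-fold, differed far less than these partners.

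Of 22 regulators of cadherin and Epcam genes, 13 were compared, 6 higher in A and 1 higher in B cells, beside 10.3% and 7.26% of all genes, with a median log2 of -0.69. Twist1 was at 26.8 CPM in A and 0.853 CPM in B cells, log2 -4.97, and Twist2 at 31.7 and 1.67 CPM, log2 -4.25. Both are transcription factors of epithelial-mesenchymal transition, and both reached 10 CPM in A cells only. Klf4, an epithelial factor, was at 20.3 and 81.0 CPM, log2 2.00. The others, named after their values were seen, were Zeb2 (27.5 and 8.66 CPM) and Snai2 (23.3 and 8.07 CPM), which repress Cdh1 through E-boxes, Cdx2, an intestinal factor (110 and 39.1 CPM), and Tcf4 (93.2 and 44.6 CPM). Zeb1, of the same family as Zeb2, was at 125 and 76.9 CPM, log2 -0.69. The part of these factors in the levels of Cdh1 and Epcam was not tested.

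**Figure D5:**
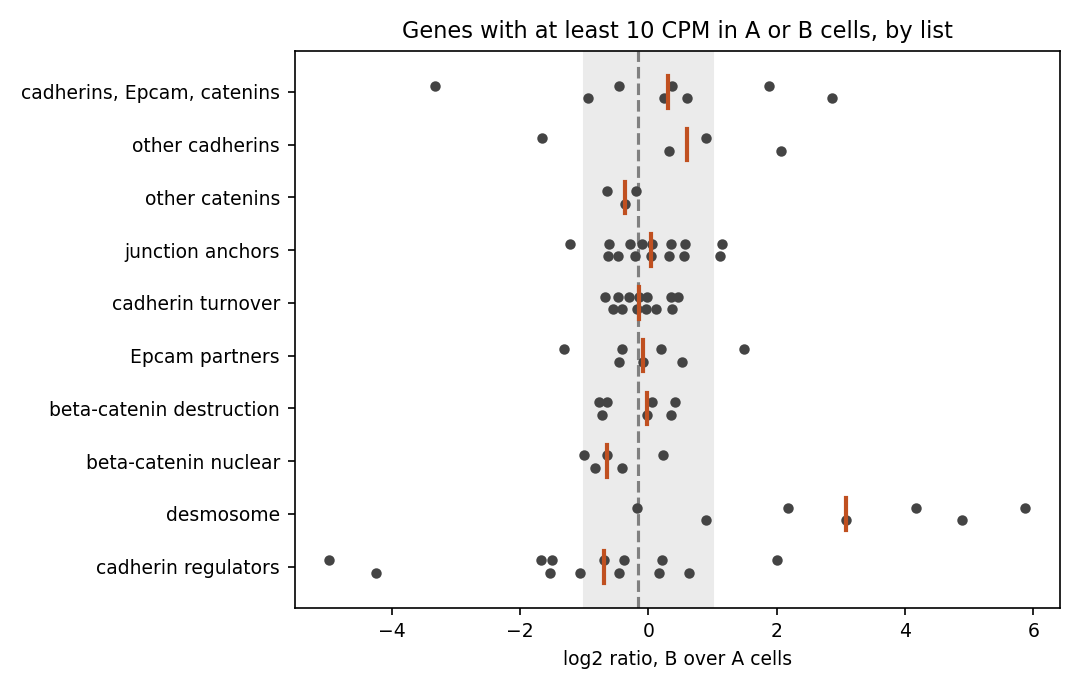
Log2 ratio of B over A cells for each gene of the lists with at least 10 CPM in A or B cells. Short vertical bars are list medians, the dashed line is the median of all genes compared (-0.17) and the grey band spans ratios under 2-fold. The desmosome list has a median of 3.08 and the regulator list one of -0.69.

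The labelled cell type was checked against markers. Of 10 genes of pancreatic duct epithelium 9 were compared, and they summed to 4356 CPM in A and 9858 CPM in B cells, with 6 higher in B cells by 2-fold, beside 7.26% of all genes. Krt7 was at 53.4 and 1358 CPM, Krt18 at 1083 and 3019 CPM and Krt19 at 618 and 1584 CPM. Of 10 mesenchymal markers 6 were compared, 3 higher in A and 0 higher in B cells by 2-fold, beside 10.3% and 7.26% of all genes, with a median log2 of -1.11. Their sum ran the opposite way, at 1845 CPM in A and 2253 CPM in B cells, with Vim at 1375 and 1972 CPM and Fn1 at 167 and 17.9 CPM. Markers of fibroblasts summed to 146 and 6.82 CPM, nearly all of it Acta2 (144 and 5.89 CPM), with 5 of 9 genes at 0 UMIs in A cells and 4 in B cells. Endothelial markers summed to 36.9 and 8.70 CPM with 3 of 7 genes at 0 in each class, and acinar markers to 13.7 and 4.38 CPM with 4 of 6 genes at 0. Immune markers summed to 3.55 and 1.00 CPM, and endocrine markers to 3 and 4 UMIs in all. Their part in the levels of the adhesion genes was not tested.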

How the data were processed

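Expression was measured in 1 library of pooled clones 76 and 84. The series' other sample, a pool of clones 1, 32, 33, 52 and 76, is not analysed here. The authors deposited raw whole-number UMI counts per gene and barcode, with no normalization; Cell Ranger 8.0.1 and GRCm39 are named in the submitters' processing notes. Barcodes were not assigned to clones.

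Cells were kept with at least 2000 UMIs, 1000 genes and at most 15% mitochondrial UMIs, and A and B cells held 40272805 and 52771426 UMIs in all. Counts were summed per class and scaled to CPM. Genes with at least 10 CPM in A or B cells were compared, and 2-fold was the threshold. A gene could thus enter through the class where it was high alone, as Epcam did through A cells. The shares over all genes have the same limit. Sums have exact Poisson, ratios exact binomial and shares exact Clopper-Pearson intervals at 95%. PCR and droplet effects are outside them. Shares and pairs used 1 random thinning to 3000 UMIs. No p-value was computed, since cells of 1 library are not replicates. Doublets were not removed in the main values. Scrublet in scanpy 1.11.5, at an expected rate of 0.08, marked 3.64% of kept cells: 1.87% of A, 2.33% of B and 9.20% of cells in neither class.

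Gene positions came from the GENCODE M21 names, matched for 31961 features. On 3000 simulated cells, 100% of 200 genes changed 4-fold were past 2-fold and 0% of 3215 unchanged genes were. Genes named by rule are the 9, the 3 farthest of each list, listed partners of the 9, the state, reference and cell-type marker genes, and the 5 most like each of the 9 where r was at least 0.1. Others are said to be named after their values were seen. The genes, lists, class rule and states were chosen with earlier results of these data known. Alternatives were other cell filters, class rules, minimum levels, scalings and depths, and removal of marked doublets. Python 3.11.15, numpy 2.4.6, scipy 1.17.1 and pandas 2.3.3 were used.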

Additional observations from a re-analysis of the deposited data

Results flagged for a closer look

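The 817 barcodes removed by the cell filter, which enter none of the comparisons, held 1030 UMIs of the 9 adhesion genes: 444 of Ctnna1, 185 of Ctnnd1, 118 of Cdh2, 116 of Ctnnb1, 73 of Cdh1, 51 of Jup, 31 of Cdh3, 12 of Epcam and 0 of Cdh11. They were set apart as signal in data the comparisons do not use.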

How the results depend on the processing

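No log2 ratio of the 9 genes changed direction under any alternative. Over all of them the log2 ratio ranged from 1.84 to 2.09 for Cdh1, 2.75 to 3.24 for Cdh2, 0.23 to 0.54 for Cdh3, -2.58 to -1.75 for Cdh11, -3.98 to -2.58 for Epcam, 0.21 to 0.42 for Ctnna1, -0.52 to -0.29 for Ctnnb1, -1.08 to -0.77 for Ctnnd1 and 0.57 to 0.77 for Jup. Of 81 such values, 58 stayed within the counting interval of the main value and 23 did not. Of 36 shares at other depths 32 moved beyond it. The alternatives without any UMI of the opposite class and with at most 3% mitochondrial UMIs were chosen after seeing the data. The count of these genes at 2-fold was 3 in all settings but 3: it was 2 of 6 at a minimum of 50 CPM, 4 of 9 with no minimum and 4 of 8 under the stricter class rule. Over all genes it was 558 of 3908 at a minimum of 50 CPM and 4961 of 16338 with no minimum, against 1547 of 8800. The minimum itself sets how many genes are compared, and the cause of the change in share was not tested. The A share of A and B cells, 46.7%, was 37.4% under the stricter cell filter and 39.1% under the stricter class rule. The stricter cell filter asks for 5000 UMIs, where median depth was 4699.5 in A and 5440.5 in B cells. It kept 3312 A and 5535 B cells, and the stricter class rule kept 3074 and 4788. The part of depth and of other traits in these shifts was not tested. The count of pairs above 1.5 in A cells, 0 in the main setting, was 1 under the looser cell filter (Cdh1 with Epcam, 1.54) and 1 under the stricter one (Epcam with Jup, 1.58). In B cells it was 1 with marked doublets removed (Epcam with Jup, 1.74). The thinning was redrawn for each setting. No paired analysis was possible because there is 1 library and no test. Depth limits Cdh11 in both classes and Epcam in B cells, with 167 UMIs or fewer.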
